A study of Homo sapiens with 5 samples.

Results

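SF-1 (steroidogenic factor-1) peaks were counted around 37 neuronal genes, out of 20163 protein-coding genes, that make synaptic vesicles, secretory granules, neurofilaments and their receptors. The genes were chosen by name for these roles and selected on earlier results from the same peaks, so the counts below describe them and carry no test. For each gene, the peaks whose centre lay within 1, 10 and 100 kb of its start were counted. The start was the outermost annotated one. Of the genes, 12 act in vesicle release, 6 in secretory granules, 7 in the cytoskeleton, 7 as receptors, synthetic enzymes or ion transporters, and 5 in signalling, adhesion and transcription.

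The cells were H295R/TR SF-1, which derive from the human adrenocortical tumor line H295R and make additional SF-1 when doxycycline is present, and peaks were mapped by sequencing immunoprecipitated chromatin (ChIP-seq). Cells were left without doxycycline (basal SF-1) or received it for 3 days (overexpressed SF-1), and all carried the same inducible construct. Chromatin of both dosages was precipitated with an SF-1 antibody from Millipore or one from Perseus. The study asked where SF-1 sits on the genome at each dosage. Each of the 4 combinations is 1 peak list called by the authors on 3 pooled libraries, so no list has a replicate. The 2 input libraries have no list here. One subclone stands for all adrenocortical cells, and peak lists hold no transcript level, so neither the cell type nor silencing of the neuronal genes could be checked.

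REST (RE1-silencing transcription factor, also called NRSF) is a zinc finger repressor present in most cells outside the nervous system. It binds RE1, a long element found beside many neuronal genes, and brings in the corepressors RCOR1 and SIN3A with their histone deacetylases, which keeps those genes off. Neurons lose REST as they mature. SF-1 is a nuclear receptor that binds a short element as a monomer and drives steroid synthesis genes in the adrenal cortex.

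With the Millipore antibody there were 4393 peaks at basal and 11910 at overexpressed dosage, and with Perseus 6616 and 7453. The median width was 149 bp in each. The only deposited measure of strength is a rank that begins at 1, and it orders peaks within a list, not between lists. Read depth is unknown. The median peak GC content was 45.6% in the basal Millipore list and between 51.0% and 55.6% in the other lists.

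The RE1 sequences near these genes are shown first, because the results turn on which of these elements lay under a peak. A match had the blocks TTCAGCACC and GGACAGCGC, 2 bases apart, on either strand, with at most 4 mismatches at these 18 positions. Each line gives the hg19 position of the 20-base match and 30 bases on the strand of the match. Capitals are positions that equal the blocks, and mismatches, spacer and flanks are in lower case. In NPAS4, which encodes an activity-dependent transcription factor, 5 matches stood in a row in an intron, all on the minus strand.
NPAS4 intron, chr11:66189180-66189199: tccctTTCAGCACCgcGGACAGtagctatg
NPAS4 intron, chr11:66189223-66189242: cagccgTCAGCACCatGGgCAGCGCcccga
NPAS4 intron, chr11:66189263-66189282: gtgggTTCAGaACCatGGACAGaGCcatac
NPAS4 intron, chr11:66189301-66189320: tgaatTTCAGaACCgcGGACAGaGCtccga
NPAS4 intron, chr11:66189339-66189358: ttaatTTCAGaACCgcGGACAGaGCtccaa
The steps between their starts were 43, 40, 38 and 38 bp. One match had 3 mismatches and the other 4 had 2 each. They lay 684 to 843 bp downstream of the start, all within the peak that ranked 2 in the basal and 2 in the overexpressed Millipore list.

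The remaining matches under a peak were as follows. Those of L1CAM, GRIA2 and SNAP25 lie beyond 10 kb of the outermost start and are shown after their values were seen, as are those of GLRA1 and CHRNB2, which fall in untranslated exons.
L1CAM intron, chrX:153140958-153140977, minus: gcgatTTCAGCACCagGGACAGCGaacctg
L1CAM intron, chrX:153141000-153141019, minus: ggcgtgTCAGgACCatGGACAGgGacaggc
SNAP25-AS1 exon, chr20:10200269-10200288, plus: ccgcgcTCAGCACCctGGAtAGCaacaccg
SNAP25-AS1 exon, chr20:10200320-10200339, plus: gacctTTCAGCACCggGGACAGCGgtccgg
CELSR3 coding exon, chr3:48699311-48699330, minus: ctggaTTCAGCACCacGcACgGCGaggaca
GLRA1 untranslated exon, chr5:151304315-151304334, plus: ggcgtTTCAGCACCacGGAgAGCGtccaga
CHRNB2 untranslated exon, chr1:154540430-154540449, plus: gcggcTTCAGCACCacGGACAGCGCcccac
SLC12A5 intron, chr20:44658202-44658221, minus: cgcatTcCAGCACCttGGACAGCGCccgga
GRIA2 intron, chr4:158141541-158141560, minus: ggcctTTCAGCACCgaGGACAGCGCctcgc
CHGA upstream, chr14:93380588-93380607, plus: ggtagTTCAGgACCacGGACAGCagcctgc
The CHRNB2 and GRIA2 matches were complete. L1CAM and SNAP25 each held a pair on 1 strand, 42 and 51 bp apart.

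Other complete or near-complete matches lay under no peak of any list. They are shown for contrast, chosen after their values were seen.
CHGA intron, chr14:93389868-93389887, plus: gagttTTCAGCACCgcGGACAGCGCctccg
UNC13A intron, chr19:17792563-17792582, minus: gagcaTTCAGCACCgtGGACAGCGCctgcc
NPAS4 upstream, chr11:66186339-66186358, plus: actctTTCAGCACCacGGACAGCGgtcggc
The CHGA match 383 bp downstream of the start and the UNC13A match had no mismatch, and the NPAS4 match had 1. A better sequence was therefore not always the one under a peak. In NPAS4 the single match with 1 mismatch, 2157 bp upstream, lay under no peak, while the row of 5 weaker ones did.

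RE1 matches lay within 10 kb of the start at 25 of the 37 genes (67.6%) and at 3962 of the 20126 other protein-coding genes (19.7%). With at most 2 mismatches the shares were 51.4% and 1.18%. The group was chosen as neuronal genes silenced by REST, so the larger share may follow from that choice and is no support for the name. At 12 of the genes no match was seen within 10 kb. These 12 include L1CAM, GRIA2 and SNAP25, whose matches lie farther from the outermost start.

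Most of these elements had no peak. Of 40 RE1 matches within 10 kb of a member start, 7 lay under a basal Millipore peak (17.5%, 95% Wilson interval 8.75 to 32.0%) and 10 under an overexpressed Millipore peak (25%, 14.2 to 40.2%). None lay under a basal Perseus peak, for which the upper Wilson bound is 8.76%, and 1 lay under an overexpressed Perseus peak. All intervals cover counting error only. As 5 of the matches are the NPAS4 row, the 10 matches belong to 6 genes, namely NPAS4, GLRA1, CELSR3, CHRNB2, SLC12A5 and CHGA.

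Elsewhere the share was lower at the same distance. Within 10 kb of other protein-coding starts, 0.98% of 3672 matches lay under a basal Millipore peak and 1.61% under an overexpressed one. Those matches were poorer, since 3021 of the 3672 had 4 mismatches against 8 of the 40 at the neuronal genes. Among matches of 0 to 2 mismatches, 5 of 23 at the neuronal genes (21.7%, 9.66 to 41.9%) and 16 of 196 at other genes (8.16%, 5.09 to 12.8%) lay under a basal Millipore peak. These intervals overlap. Counted by gene, so that the NPAS4 row counts once, 2 of 19 neuronal genes with such a match (10.5%, 2.94 to 31.4%) and 12 of 237 others (5.06%, 2.92 to 8.64%) had it under a basal Millipore peak.

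**Figure D1:**
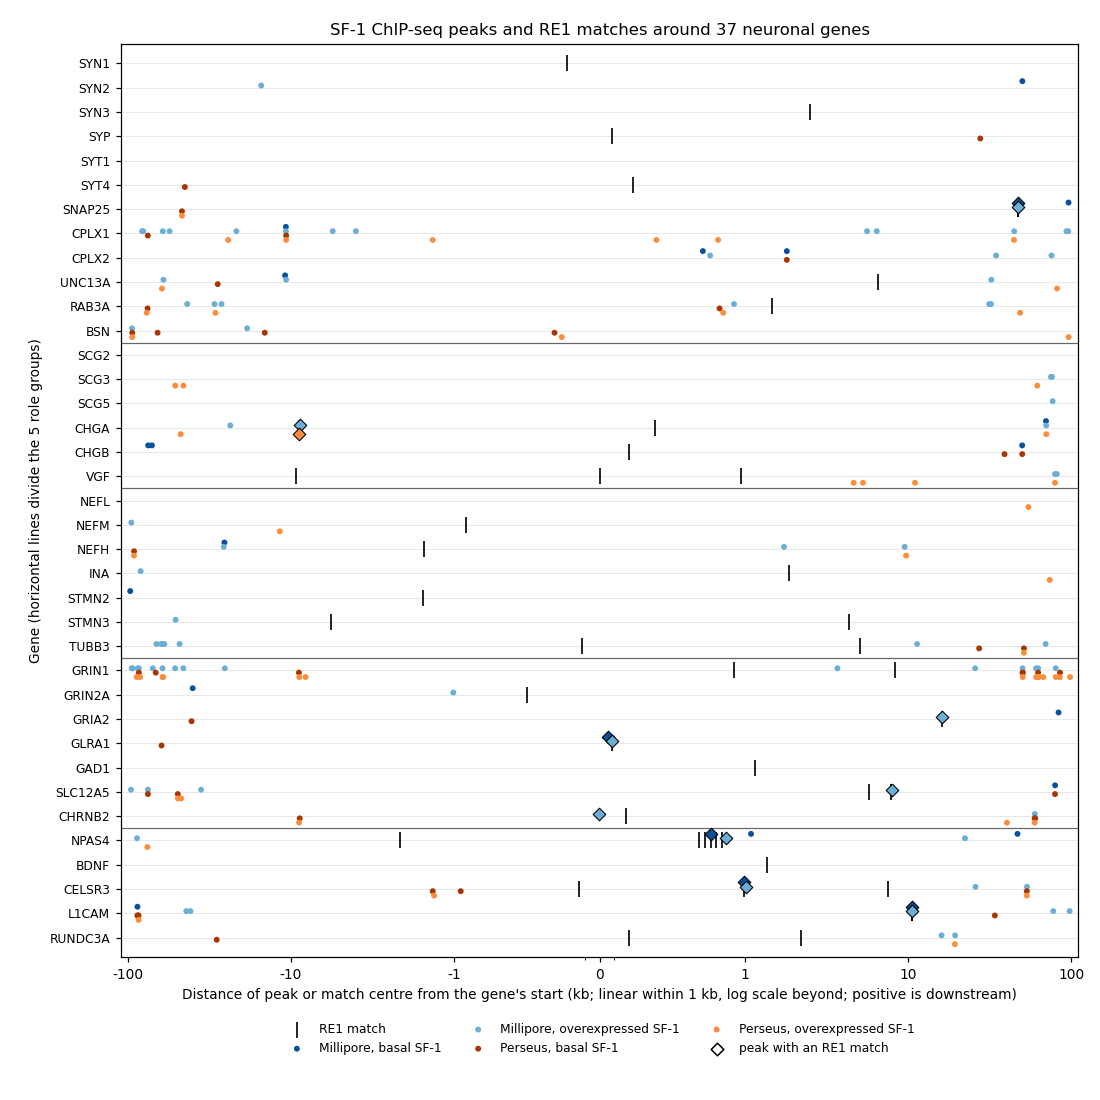
Peaks and RE1 matches around the 37 genes, 1 row per gene, by distance from the outermost start in kb (linear within 1 kb, log scale beyond). Circles are peaks coloured by list, diamonds are peaks that hold an RE1 match and black ticks are RE1 matches. Ticks show every match within 10 kb of the start, but beyond 10 kb only matches under a peak. Most ticks within 10 kb stand without a diamond, and the diamonds are Millipore peaks except 1 overexpressed Perseus peak upstream of CHGA.

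Within 1 kb of the start, 4 of the 37 genes (10.8%, 4.29 to 24.7%) had a basal Millipore peak, where 1.02% of all protein-coding genes did. The numbers were 5 (13.5%) against 8.19% in the overexpressed Millipore list, 3 (8.11%) against 9.56% in the basal Perseus list and 3 (8.11%) against 10.5% in the overexpressed Perseus list. The genes thus stood above the background in the basal Millipore list, and near it in the other 3. Counted from the nearest start of any transcript, the number within 1 kb of a basal Millipore peak was 7 (18.9%), against 2.23% of all genes, and 10 (27%) an overexpressed Millipore peak, against 12.8%. The genes gained at basal dosage were L1CAM, SNAP25 and GRIN2A.

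Within 10 kb, 4 genes (10.8%) had a basal Millipore peak against a background of 4.38%, and 12 (32.4%, 19.6 to 48.5%) an overexpressed Millipore peak against 19%. In the Perseus lists 6 (16.2%) had a basal peak against 15.5%, and 9 (24.3%) an overexpressed peak against 17.1%. The backgrounds lay within the intervals of the neuronal genes, except in the overexpressed Millipore list, where 19% was just below the interval.

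Within 100 kb, 16 genes (43.2%) had a basal and 26 (70.3%) an overexpressed Millipore peak, where 30.7% and 61.5% of all genes did. For Perseus 19 (51.4%) had a basal and 20 (54.1%) an overexpressed peak, where 47.2% and 51.2% did. At this distance all 4 shares were near the background.

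The promoters of the 37 genes were GC-rich, with a median of 63.4% over the 1 kb centred on the start against 59.2% for all protein-coding genes, and 15 of them fell in the 3 GC-richest of 10 equal strata of genes. Other genes weighted to the same strata had a basal Millipore peak within 1 kb in 1.06% of cases and within 10 kb in 4.45%. The overexpressed Millipore share within 10 kb was 20.9% by this weighting. This value lies inside the interval of the neuronal genes, 19.6 to 48.5%, so the background stood below that interval only without the weighting.

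**Figure D2:**
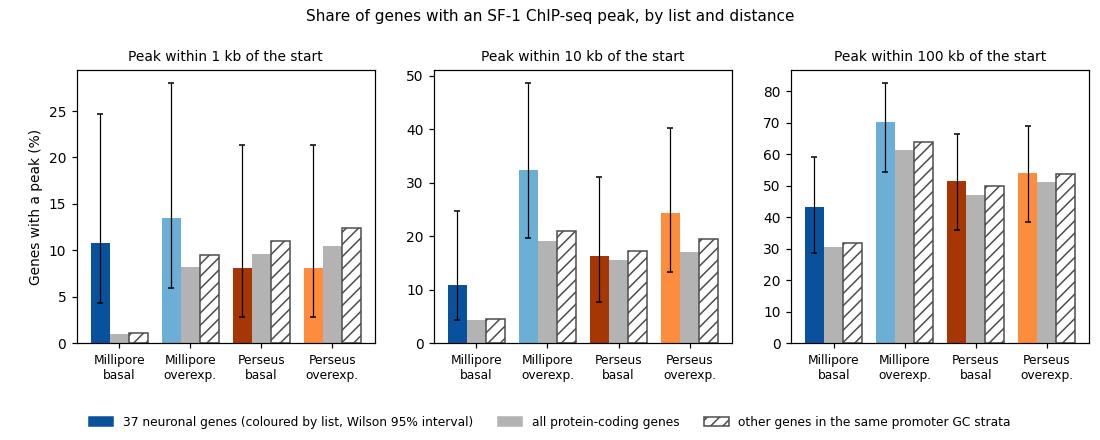
Percent of genes with a peak within 1, 10 and 100 kb of the start, in each of the 4 lists. Coloured bars are the 37 neuronal genes with Wilson 95% intervals, grey bars all protein-coding genes and hatched bars other genes weighted to the same promoter GC strata. The widest gap as a ratio is the basal Millipore list within 1 kb, with 10.8% against 1.02%.

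By edge of distance, the NEFH peaks at 9743 and 9543 bp were the last inside 10 kb and the L1CAM peaks at 10627 bp the first outside. Of the 37 genes, 14 had a peak of some list within 10 kb and 31 within 100 kb. The matching share of all genes over the 4 lists together was not counted, so these numbers have no background. The synapsins SYN1 and SYN3, the calcium sensor of vesicle fusion SYT1, the granule protein SCG2, GAD1 and BDNF had none within 100 kb, although 4 of these 6 (SYN1, SYN3, GAD1 and BDNF) had an RE1 match within 10 kb. For SYN3 and SYT1 this depended on the start used. From the nearest start of any transcript, SYN3 had a peak within 100 kb in all 4 lists and within 10 kb in both overexpressed lists, and SYT1 had an overexpressed Millipore peak within 100 kb.

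Among peaks within 10 kb, the best-ranked of both Millipore lists was that of NPAS4, a signalling and transcription gene. The NPAS4 peak was 449 bp wide at basal dosage and 649 bp at overexpressed dosage, and the middle match of the row lay 2 bp from the basal peak centre. A second basal Millipore peak of NPAS4, at 1094 bp, ranked 4225 and fell under the same overexpressed peak. CELSR3, an adhesion receptor of the cadherin family that guides axons, had a Millipore peak in its coding exon at 994 bp that ranked 27 at basal dosage and at 1019 bp that ranked 98 at overexpressed dosage. Its match of 3 mismatches lay 4 bp from the basal peak centre.

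CELSR3 also had Perseus peaks, on the other side of its start and without an RE1 match. They ranked 1207 and 2717 in the basal list, at 956 and 1356 bp upstream, and 177 in the overexpressed list, at 1331 bp upstream. The pair at the greater distance overlapped and held the SF-1 consensus, which was CAAGGCC or CAAGGTC preceded by C or T and followed by A or G. The basal peak at 956 bp held neither element. No Perseus peak overlapped a Millipore peak at this gene within 10 kb.

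L1CAM, an adhesion molecule of growing axons, had Millipore peaks of rank 12 at basal and 41 at overexpressed dosage, both centred 10627 bp downstream of the outermost start and 302 bp from the nearest annotated transcript start. BDNF, a secreted neurotrophin, and RUNDC3A, an effector of small GTPases in neurons, had no peak within 10 kb. RUNDC3A had 4 peaks within 100 kb, the nearest 16069 bp away. BDNF had an RE1 match of 1 mismatch in an untranslated exon, 1371 bp downstream.

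**Figure D3:**
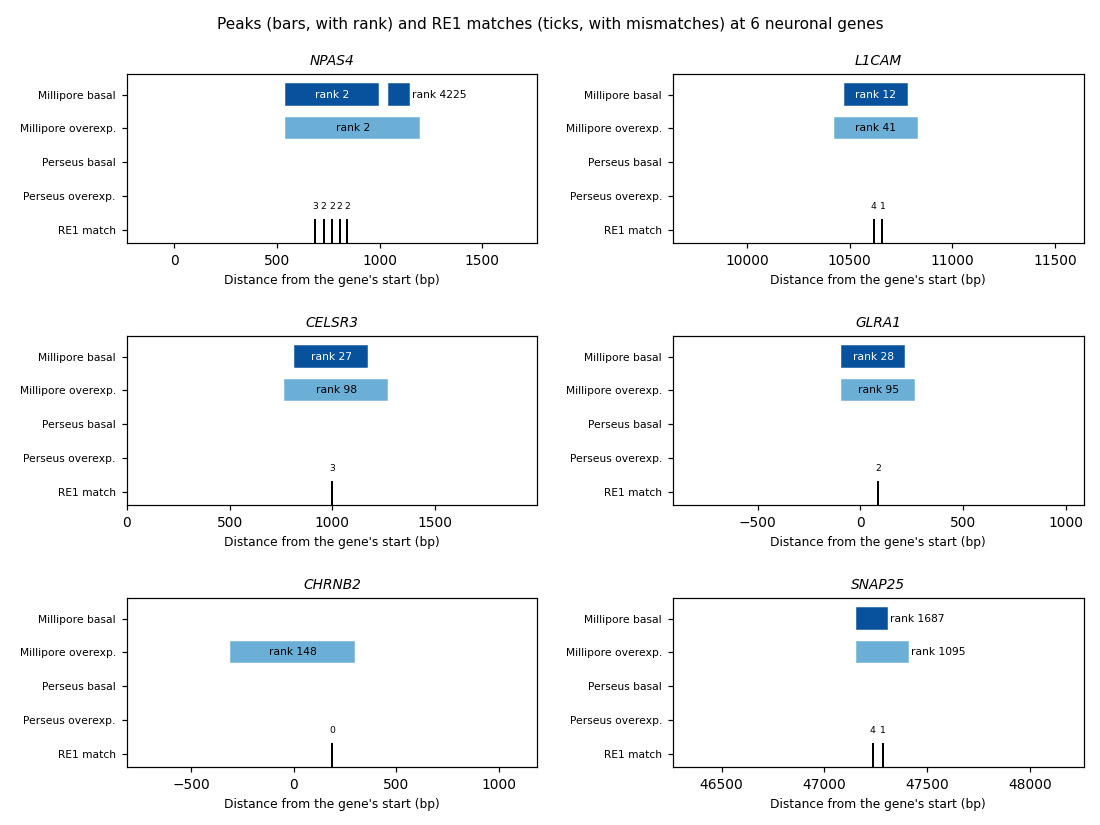
Peaks (bars, labelled with their rank) and RE1 matches (ticks, labelled with their mismatches) within 1 kb of the element at 6 genes, by distance in bp from the outermost start, with 1 row for each list (overexp., overexpressed SF-1). The element lies under a Millipore bar at every gene drawn, at both dosages except in CHRNB2, and no Perseus bar is seen there.

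Among receptors and transporters, 1 of 7 genes had a basal and 5 of 7 an overexpressed Millipore peak within 10 kb, where 4.38% and 19% of all genes did. In each Perseus list 2 of 7 had a peak, where 15.5% (basal) and 17.1% (overexpressed) of all genes did. For overexpressed Millipore peaks the other groups had 3 of 12 (vesicle release), 1 of 6 (granule), 1 of 7 (cytoskeleton) and 2 of 5 (signalling). No difference between gene groups was tested. GLRA1, a subunit of the inhibitory glycine receptor, was the 1 at basal dosage. Its peak, 62 bp downstream of the start, ranked 28 at basal dosage and, at 87 bp, 95 at overexpressed dosage. CHRNB2, a subunit of the nicotinic acetylcholine receptor, had an overexpressed Millipore peak of rank 148 at -4 bp, 599 bp wide, with its complete RE1 match 190 bp downstream of the peak centre. SLC12A5, the chloride extruder of neurons, had an overexpressed Millipore peak of rank 4320 at 7946 bp, 304 bp from another transcript start.

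The other receptor peaks held no RE1 match within 10 kb. GRIN1, the obligatory subunit of the NMDA receptor, had an overexpressed Millipore peak of rank 2712 at 3702 bp in a coding exon. It had Perseus peaks of rank 3382 at basal and 1461 at overexpressed dosage about the same place upstream, at 8948 and 8898 bp. Another overexpressed Perseus peak, of rank 924, lay 8148 bp upstream. None covered the complete RE1 match of GRIN1 at 924 bp downstream in an untranslated exon.

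GRIN1 also had the most peaks of the 37 genes within 100 kb, 36 over the 4 lists. GRIN2A, another NMDA receptor subunit, had 1 overexpressed Millipore peak, 1015 bp upstream, of rank 11826, close to the end of the list. CHRNB2 had Perseus peaks of rank 1144 at basal and 705 at overexpressed dosage, 8854 and 8929 bp upstream, inside the neighbouring gene UBE2Q1. These are peaks at a neighbour as much as at CHRNB2.

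GRIA2, an AMPA receptor subunit, had no peak within 10 kb of the outermost start. Its overexpressed Millipore peak of rank 1371, over the complete match, lay at 16216 bp and 120 bp from another transcript start. GAD1, which makes the transmitter GABA, had none within 100 kb.

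Vesicle and release genes had peaks mostly without RE1, as is usual in these lists, where 0.348% to 1.25% of all peaks held a match. CPLX2, a complexin that clamps and triggers vesicle fusion, had Millipore peaks of rank 584 at basal dosage and 326 at overexpressed dosage, 712 and 762 bp downstream of its start. A second place at 1812 bp held the SF-1 consensus and was found by both antibodies at basal dosage, with rank 3641 for Millipore and 6026 for Perseus. CPLX2 had no RE1 match within 10 kb.

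CPLX1, the other complexin, had no basal peak within 10 kb and 7 overexpressed ones. Its Perseus peaks ranked 1069, 2504 and 3473 and lay at 392, 817 and -1358 bp. Its 4 Millipore peaks ranked 7559, 7889, 8072 and 11545. The only place within 100 kb of any of the 37 genes that overlapped a peak of all 4 lists lay upstream of CPLX1, at -10758 bp in the Millipore and -10708 bp in the Perseus lists. It ranked 272 at basal and 611 at overexpressed dosage for Millipore, and 67 and 639 for Perseus. How often places elsewhere overlapped a peak of all 4 lists was not counted.

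RAB3A, a small GTPase of synaptic vesicles, had a peak 827 to 927 bp into the gene in 3 lists. It ranked 3417 in the overexpressed Millipore list, 4140 in the basal and 2527 in the overexpressed Perseus list, and both Perseus peaks held the SF-1 consensus. BSN (bassoon, a scaffold of the active zone) had Perseus peaks of rank 189 at basal and 337 at overexpressed dosage, 310 and 260 bp upstream. No Millipore peak lay within 10 kb of it.

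The SF-1 consensus at these places is shown as the counterpart of the RE1 sequences, in capitals with 5 bases on each side. The CPLX1 line lies beyond 10 kb and was added after its values were seen.
CPLX1 upstream, chr4:830679-830687, minus: gcctcCCAAGGCCAcgctg
CPLX2 intron, chr5:175225169-175225177, minus: cttgcCCAAGGTCAtatgc
RAB3A intron, chr19:18314006-18314014, plus: tccggCCAAGGCCGctgca
CELSR3 upstream, chr3:48701681-48701689, plus: ggctaCCAAGGTCAggcaa
These were the only 4 matches that lay under peaks within 11 kb of a member start. None shared a peak with an RE1 match, and over all peaks at most 0.118% of a list held both.

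SNAP25, a membrane protein of the fusion machinery, had no peak within 10 kb of its outermost start. Its RE1 pair lay under Millipore peaks of rank 1687 at basal and 1095 at overexpressed dosage, 47232 and 47282 bp downstream, which is 468 and 518 bp from another transcript start. SYP (synaptophysin) and SYT4 (a synaptotagmin) had an RE1 match of 2 mismatches at 85 and 231 bp and 1 peak each within 100 kb, a basal Perseus one. UNC13A, which primes vesicles, had 7 peaks within 100 kb and none within 10 kb. SYN2, a synapsin that tethers vesicles, had 2 within 100 kb.

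None of the 6 secretory granule genes had a peak within 1 kb. By list 1.02% to 10.5% of all protein-coding genes did, so none among 6 is near the background. CHGA (chromogranin A, a granule protein that adrenal cells of the medulla also make) had an overexpressed Millipore peak of rank 1626 and an overexpressed Perseus peak of rank 6147, 8845 and 8945 bp upstream. They overlapped, and both covered its match of 3 mismatches. This was the only RE1 match near the 37 genes under a Perseus peak.

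VGF, a secreted neuropeptide precursor, had 3 RE1 matches within 10 kb, 1 of them of 1 mismatch at the start itself, and no peak over them. Its overexpressed Perseus peaks, of rank 3868 and 5833, lay 5300 and 4650 bp from the start inside the neighbour AP1S1. CHGB (chromogranin B) had 5 peaks within 100 kb, SCG3 (secretogranin III) 5 and SCG5 (a chaperone of prohormone convertase) 1.

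Among cytoskeletal genes only NEFH, the heavy neurofilament chain, had peaks within 10 kb. An overexpressed Millipore peak of rank 69, 799 bp wide, lay at 9543 bp in its coding exon and overlapped an overexpressed Perseus peak of rank 1419. Neither held RE1 or the SF-1 consensus. Another NEFH peak, in the overexpressed Millipore list at 1743 bp, ranked 7227. Its RE1 match of 1 mismatch, 1532 bp upstream, had no peak.

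NEFL and NEFM, the light and medium chains, are neighbours and shared 1 overexpressed Perseus peak of rank 4444, 11721 bp upstream of NEFM. INA (alpha-internexin) had 2 peaks within 100 kb, STMN2 and STMN3, which bind tubulin, 1 each, and TUBB3, the neuronal beta-tubulin, 10. Of these 7 genes, 6 had an RE1 match within 10 kb, and none of the matches lay under a peak.

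Millipore peaks near the neuronal genes held RE1 more often than their lists did. The genes were chosen as silenced by REST and on earlier results from these peaks, so this may follow from the choice. Within 10 kb, 51.4% of them and 1.18% of other protein-coding genes had an RE1 match of at most 2 mismatches. Of 6 basal Millipore peaks within 10 kb, 3 held an RE1 match (50%, 18.8 to 81.2%), against 1.25% of all 4393 peaks and 0.102% of windows of the same width 5 kb to each side. Of 16 overexpressed Millipore peaks, 6 did (37.5%, 18.5 to 61.4%), against 0.907% of the list and 0.277% of the windows. In the Perseus lists 0 of 7 basal peaks and 1 of 13 overexpressed peaks did, against 0.348% and 0.416%, with 0.181% and 0.154% in the windows. At other genes RE1 was rarer: 3.03% of the 726 basal Millipore peaks within 10 kb of any protein-coding start held a match, and 3 of these 22 peaks are those of NPAS4, CELSR3 and GLRA1.

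The SF-1 consensus was held by 1 of the 6 basal Millipore peaks (16.7%) and 0 of the 16 overexpressed Millipore peaks, where 16% and 10.9% of the lists did. For 0 of 16 the interval reaches 19.4%, which includes the share of the list. It was held by 3 of 7 basal Perseus peaks (42.9%, 15.8 to 75.0%) and 2 of 13 overexpressed ones (15.4%), where 21.6% and 17.2% of the lists did. With any base allowed on either side of the 7 inner bases, 18.8% of the overexpressed Millipore and 38.5% of the overexpressed Perseus peaks held the sequence. At basal dosage 16.7% of the Millipore and 57.1% of the Perseus peaks did. The share of each whole list with this looser sequence was not counted, so these values have no background. No peak within 100 kb of the neuronal genes held both elements. Over all peaks, 0.0911% to 0.118% of each list did, so none is near the background.

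In the best-ranked 1% of the basal Millipore list 23 of 43 peaks (53.5%) held a match, against 0.395% of the worse-ranked 75%. At overexpressed dosage, 21% of the 119 best-ranked Millipore peaks (1% of the list) held it, against 0.526% of the worse-ranked 75%. Those 75% nevertheless held 47 of the 108 overexpressed Millipore peaks with RE1, and the best-ranked 1% held 25. In both Perseus lists it was found in 0 of the best-ranked 1%. Of the 27 peaks with RE1 among the 100 best-ranked basal Millipore peaks, 4 lay within 100 kb of the neuronal genes, those of NPAS4, L1CAM, CELSR3 and GLRA1.

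Whether matches stood in rows, as in NPAS4, was then counted over the genome, a choice made after that row was seen. Matches within 200 bp of each other were linked into 1 locus, and loci whose best match had 0 to 2 mismatches were kept. Of 735 loci with a single match, 6 lay under a basal Millipore peak (0.816%, 0.375 to 1.77%) and 14 under an overexpressed one (1.9%, 1.14 to 3.17%). Of 31 loci with 2 or more matches, 22 (71%, 53.4 to 83.9%) and 24 (77.4%, 60.2 to 88.6%) did. In the Perseus lists 2 (6.45%, 1.79 to 20.7%) and 1 (3.23%, 0.572 to 16.2%) of the 31 did. Of the 735 loci with a single match, 2 (0.272%, 0.0747 to 0.987%) and 4 (0.544%, 0.212 to 1.39%) lay under a Perseus peak. The shares were lower without the limit of 0 to 2 mismatches. Counted by match at 0 to 4 mismatches, 40 of 223 with 1 other match within 200 bp (17.9%) lay under a basal Millipore peak. So did 35 of 163 with 2 or more others (21.5%) and 24 of 19428 alone (0.124%).

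NPAS4, L1CAM and SNAP25 are 3 of these 31 loci, and all 3 lay under peaks of both Millipore lists. Without the loci within 100 kb of a neuronal gene, 19 of 28 rows or pairs (67.9%, 49.3 to 82.1%) and 5 of 711 single matches (0.703%) lay under a basal Millipore peak. Of the 24 single loci within 100 kb of the neuronal genes, 1 lay under a basal Millipore peak (GLRA1) and 4 under an overexpressed one (GLRA1, CHRNB2, SLC12A5 and GRIA2). In 30 of the 31 loci the matches were on 1 strand. The smallest step between matches had a median of 42 bp over the 31 loci and of 39 bp over the 22 under a basal Millipore peak. No locus held more matches than the 5 of NPAS4.

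**Figure D4:**
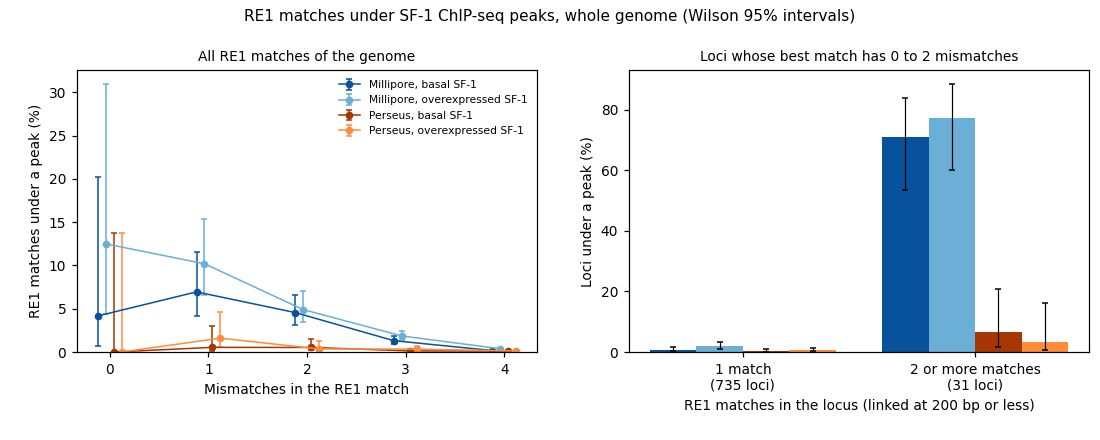
Left, percent of all RE1 matches of the genome that lay under a peak, by mismatches and list. Right, percent of loci under a peak for loci of 1 match (735) and of 2 or more (31), with Wilson 95% intervals. The Millipore bars reach 71% and 77.4% for 2 or more matches and stay under 2% for 1.

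Relatives of the 37 genes were counted in the same way. Of 62 genes of the same families, such as other synaptotagmins, syntaxins and glutamate receptor subunits, 4 had a basal Millipore peak within 10 kb (6.45%), 14 an overexpressed Millipore peak (22.6%), 8 a basal (12.9%) and 13 an overexpressed Perseus peak (21%). All protein-coding genes had 4.38%, 19%, 15.5% and 17.1%, so the relatives were near the background. An RE1 match lay within 10 kb of 20 of them, with at most 2 mismatches for 4, and none lay under a peak of any list. Of protein-coding genes outside the 37 with such a match, 0.353% to 1.16% had it under a peak, by list. With at most 2 mismatches it was 0.844% to 8.44%. For so few relatives, none is near these shares. Of 13 genes for REST and its corepressors, 0 had a basal Millipore peak within 10 kb, 4 (30.8%) an overexpressed Millipore peak, and 3 (23.1%) a peak in each Perseus list, beside the same 4 backgrounds. REST itself had none within 10 kb, and RCOR1 and SIN3A had an overexpressed Millipore peak.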

How the data were processed

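SF-1 ChIP-seq peaks of H295R/TR SF-1 cells were analysed in 4 deposited lists. According to their methods, the authors mapped reads to hg19 with ELAND (CASAVA 1.6 per the labels' processing notes) and called peaks with CisGenome on the 3 pooled libraries of each condition against input. The score used here is the rank the authors deposited with each peak. What they ranked on is not stated, and a further deposited column is 1000 for every peak and was not used. Calling on pooled libraries leaves no replicate error, starts fall on a grid of 50 bp, and a list from more reads holds more and weaker peaks.

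Peaks were compared with the GRCh37 (hg19) sequence and GENCODE version 44 lifted to it (20163 protein-coding of 64449 genes). Distances join peak centres and outermost starts. RE1 and the SF-1 consensus were searched on both strands, and an RE1 match counted as under a peak when wholly inside it. Peaks of different lists were shared when they overlapped by 1 bp. Shares carry 95% Wilson intervals, which cover counting error only. Background genes came from all protein-coding genes and from the same of 10 strata of promoter GC.

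The genes, their lists and the measures were chosen with earlier results of these data known. Genes with a peak within 10 kb were described one by one, and the others by number of peaks within 100 kb. RE1 sequences were to be shown for matches under a peak within 10 kb outside untranslated regions, and others are marked. The search and the distance counts were tested on simulated data. Alternatives covered gene starts, peak edges, list length, mismatches, peak widening and distance. Scripts ran in Python 3.11.15 (pysam 0.24.0, matplotlib 3.10.9, numpy 2.4.6, pandas 2.3.3).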

Additional observations from a re-analysis of the deposited data

Results flagged for a closer look

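The share of peaks within 10 kb of a neuronal gene start that held an RE1 match moved in opposite directions with SF-1 dosage for the 2 antibodies. From basal to overexpressed SF-1 it fell by 12.5 percentage points in the Millipore lists, from 3 of 6 peaks to 6 of 16, and was higher by 7.69 percentage points in the Perseus lists, from 0 of 7 to 1 of 13. The difference was not tested. The Perseus value rests on a single peak, the one upstream of CHGA, and the intervals of the 2 Millipore shares, 18.8 to 81.2% and 18.5 to 61.4%, overlap over most of their length.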

How the results depend on the processing

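Of 104 values recomputed under other settings, 92 stayed near the reported one, counts within 1.5 times and shares within their interval, and 12 did not. Counting from the nearest start of any transcript gave 7 genes with a basal Millipore peak within 1 kb in place of 4, 10 with an overexpressed one in place of 5, and 7 with a basal one within 10 kb in place of 4. The background rose to 2.23%, 12.8% and 7.87%. The genes gained at basal dosage were GRIN2A, L1CAM and SNAP25. With the better-ranked 50% of each list, 3 genes in place of 6 had a basal Perseus peak within 10 kb, 12 in place of 19 within 100 kb, and 13 in place of 20 an overexpressed Perseus peak within 100 kb. No RE1 match then lay under an overexpressed Perseus peak, 0 in place of 1. With 4393 peaks in every list, 16 genes in place of 26 had an overexpressed Millipore peak within 100 kb and 13 in place of 20 an overexpressed Perseus peak. With the RE1 consensus in ambiguity letters, 6 matches in place of 10 lay under an overexpressed Millipore peak and 0 in place of 1 under an overexpressed Perseus peak. Within 100 kb, 10.3% of overexpressed Millipore peaks held an RE1 match in place of 37.5%. The shares of rows and pairs of RE1 matches under a peak stayed within their intervals when matches were linked at 100 or 500 bp, kept to 3 mismatches or counted away from the neuronal genes. All these settings kept only loci whose best match had 0 to 2 mismatches. No paired analysis was possible because each list pools its libraries and no result comes from a test. Read depth, signal height and input are unknown for each peak, so a gene without a peak cannot be told from one below the threshold of calling.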

Other observations

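Across the genome, the share of RE1 matches under a peak fell from 1 to 4 mismatches in all 4 lists. It was 3 of 24 matches without mismatch (12.5%, 4.34 to 31.0%), 10.2% with 1, 4.91% with 2, 1.86% with 3 and 0.372% with 4 in the overexpressed Millipore list. In the basal Millipore list it was 1 of 24 without mismatch (4.17%, 0.739 to 20.2%), 6.95% with 1, 4.56% with 2, 1.31% with 3 and 0.168% with 4. In both Perseus lists 0 of 24 matches without mismatch lay under a peak, with an upper Wilson bound of 13.8%. With 1, 2, 3 and 4 mismatches the shares were 0.535%, 0.526%, 0.127% and 0.102% at basal dosage. At overexpressed dosage they were 1.6%, 0.351%, 0.338% and 0.114%. The Perseus shares with 1 and 2 mismatches rest on 1 to 3 matches each.

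Most of the 9 genes with an RE1 match under a peak within 100 kb had it beside a transcript start once all transcripts were counted. The peak centre lay 43 to 1019 bp from the nearest start in absolute distance at NPAS4, L1CAM, CELSR3, GLRA1, SNAP25, SLC12A5 and GRIA2, and 4 bp upstream at CHRNB2. CHGA was the exception, with its peaks 8845 and 8945 bp upstream of every annotated start. GRIA2 has 35 annotated starts, SLC12A5 19 and SNAP25 18, and the number of starts was not taken into account.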
